A study of Mus musculus with 6 samples.

Results

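The EGF family of ligands and its ERBB receptors was examined in cultured mouse muscle cells with and without a knockout of *Mstn*. This gene encodes myostatin (MSTN), a secreted inhibitor of muscle growth. The genes examined were chosen by name, with earlier results of these data known. They were the ligand genes *Areg*, *Ereg*, *Hbegf*, *Btc* and *Nrg1* and the receptor genes *Egfr*, *Erbb2* and *Erbb3*. All 8 were among the 14548 genes with deposited values. RNA-seq had been performed on C2C12 cells, an established line of mouse myoblasts, the dividing cells that fuse into muscle fibres, with 3 libraries of WT cells and 3 of MSTN-KO cells. The MSTN-KO cells are the line C11, made by transfecting C2C12 cells with a CRISPR/Cas9 plasmid against exon 3 of *Mstn*, and all MSTN-KO libraries come from that line, so the loss of MSTN and any other property of the line cannot be told apart. The strain entry in the labels reads C11 for both groups, and samples were grouped by genotype. No treatment or differentiation step was stated for either group, and the cells were grown in medium with fetal bovine serum. Nothing states that the replicates were separate cultures, so the p-values measure only the spread between these libraries, which may be technical.

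Ligands of the EGF family are made as precursors in the cell membrane, and proteases of the ADAM family cut them free. The released ligand binds a receptor of the ERBB family, which pairs with another receptor and starts signalling through the RAS-ERK and PI3K-AKT routes. AREG, EREG, HBEGF and BTC bind EGFR, and EREG, HBEGF and BTC also bind ERBB4. NRG1 binds ERBB3 and ERBB4, while ERBB2 has no known ligand and ERBB3 has little kinase activity, so these receptors signal together. In muscle, NRG1 and its receptors are known for their part at the nerve-muscle junction and in muscle spindles, and EGFR signalling acts in satellite cells.

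Values were FPKM, a count of sequenced fragments scaled to transcript length and to the size of the library, so that levels can be compared between genes. The number of fragments behind each value is unknown. The FPKM summed to between 723705 and 764524 in the WT libraries and to between 856314 and 999579 in the MSTN-KO libraries. *Mstn* itself was between 0 and 0.0399 FPKM in WT and between 0.0269 and 0.0586 FPKM in MSTN-KO. Its RNA was thus very low in both groups and could not check the labels. Every direction between the groups therefore rests on the labels alone. The study reports from a Western blot that MSTN protein was missing in C11 cells relative to WT cells. For the immediate early gene *Fos*, the direction under these labels is opposite to that described by the study, as given below. The myoblast markers *Myod1* and *Des* were present in all 6 libraries, but of 5 myoblast markers *Myod1*, *Des* and *Itga7* were called lower in MSTN-KO and *Pax7* higher. *Myod1* was at 126 to 167 FPKM in WT and at 90.8 to 104 FPKM in MSTN-KO, and *Des* at 576 to 807 FPKM and 325 to 409 FPKM. The 5 markers summed to 950.3 to 1356 FPKM in WT and to 596 to 737 FPKM in MSTN-KO, without overlap. All 11 measured markers of muscle differentiation were also called lower in MSTN-KO, and their summed FPKM was 960, 947 and 268 in WT replicates 1, 2 and 3 and 39.96 to 67.2 in MSTN-KO. The part of these marker differences in the results was not tested. Of the markers of other cell types, the 5 measured for endothelial cells were all under 1 FPKM, as were 5 of 7 epithelial markers, 1 of 3 leukocyte markers and 3 of 5 Schwann cell markers (*Erbb3* left out). The rest of these lists reached 1 FPKM. *Krt14* (24.6 to 52.1 FPKM), *Krt19* (56.6 to 81.1 FPKM), *Cd14* and *Cd68* were not called. *Gap43* was called higher in MSTN-KO (23.3 to 31.9 FPKM in WT, 42.2 to 49.4 in MSTN-KO) and *Ncam1* lower (29.1 to 41.3 FPKM in WT, 14.8 to 19.1 in MSTN-KO). Fibroblast markers summed to 362 to 499.6 FPKM in WT and to 574 to 639 FPKM in MSTN-KO, with 4 of 6 higher on average in MSTN-KO. Among them *Col3a1* and *Pdgfrb* were called higher in MSTN-KO and *Dcn* lower. *Col1a1* and *Col1a2* were not called, and *Pdgfra* stayed under 1 FPKM.

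In the MSTN-KO libraries *Areg*, *Hbegf* and *Erbb3* fell and *Nrg1* rose. *Areg* fell most, with a WT level 2.94 times that of MSTN-KO, whereas *Ereg*, *Egfr* and *Erbb2* did not pass the test. *Btc* stayed under 1 FPKM in every library and was not tested. The test was limma on log2(FPKM + 1) over the 10837 genes that reached 1 FPKM in some library, with the Benjamini-Hochberg adjusted p over all of them. A gene was called at an adjusted p under 0.05, which 17.7% of the genes tested reached (8.78% higher and 8.96% lower in MSTN-KO). Of the 7 EGF family genes tested, 4 were called, 1 higher and 3 lower, in a set chosen with earlier results known. In bulk RNA, fewer cells that express a gene and less of its RNA per cell cannot be told apart. The plot of all 8 genes by library shows these levels.

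**Figure D1:**
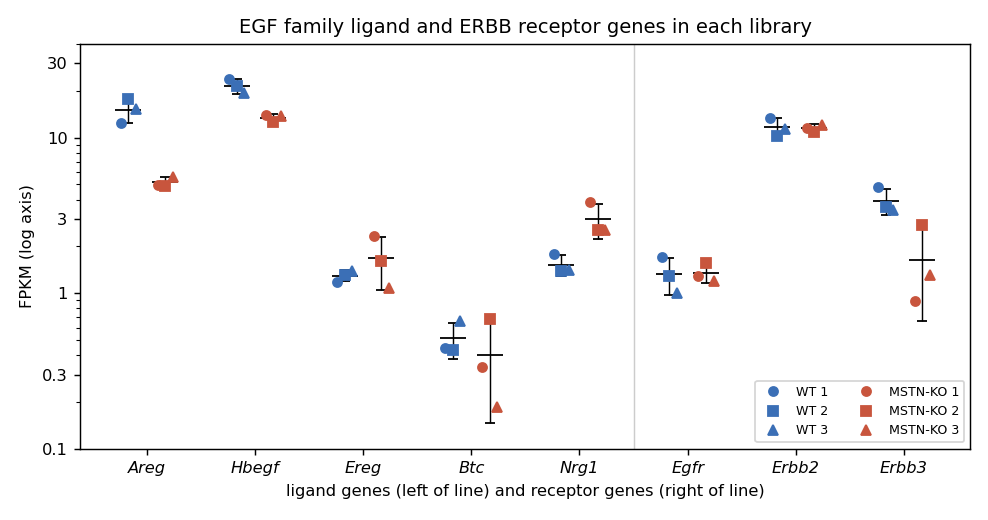
FPKM (log axis) of the 5 ligand genes and 3 receptor genes in each WT (blue) and MSTN-KO (red) library, with the group mean and SD (n = 3) as black bars. The WT points of *Areg*, *Hbegf* and *Erbb3* all sit above the MSTN-KO points, those of *Nrg1* all sit below, and the other 4 genes overlap.

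Amphiregulin, encoded by *Areg* (ENSMUSG00000029378), is an EGFR ligand that growth factors and cyclic AMP are known to induce. The gene lies on the plus strand of chromosome 5 from 91139599 to 91148432 (GRCm38, GENCODE M21 annotation). Replicates are given here and below in the order 1, 2 and 3. The WT level was 12.4, 17.7 and 15.3 FPKM, and the MSTN-KO level 4.95, 4.91 and 5.61 FPKM. The groups did not overlap, and the MSTN-KO replicates lay closer together than the WT replicates. Of all genes tested, 37.4% showed no overlap between the groups. The means were 15.1 ± 2.65 FPKM (SD, n = 3) in WT and 5.16 ± 0.389 FPKM in MSTN-KO. On the log2(FPKM + 1) scale, which understates the change of low genes, *Areg* fell by 1.38 (standard error 0.16, limma adjusted p = 6.26e-05). It also met the study's cutoffs for a DEG (differentially expressed gene), an unadjusted p under 0.05 and a log2 difference past 1 in size. These cutoffs were applied here to the limma fit on log2(FPKM + 1), whereas the study used iDEP software. In the limma fit 2.3% of the genes tested met them as lower genes and 1.21% as higher genes, so these shares are not the study's.

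The promoter of *Areg* is shown because this gene changed most among the 8, and that of *Btc* because it belongs to the same cluster of ligand genes and stayed low in both groups. Both sequences run from 250 bases before the gene's start to 50 after it, on the gene's own strand, and were taken from RefSeq (GRCm38.p6). They lie at chr5:91139349-91139648 (plus strand) for *Areg* and at chr5:91402945-91403244 (minus strand) for *Btc*. Capitals mark matches, on either strand, to the cyclic AMP response element TGACGTCA or to the muscle E-box CAGCTG, a target sequence of myogenic factors.
Areg: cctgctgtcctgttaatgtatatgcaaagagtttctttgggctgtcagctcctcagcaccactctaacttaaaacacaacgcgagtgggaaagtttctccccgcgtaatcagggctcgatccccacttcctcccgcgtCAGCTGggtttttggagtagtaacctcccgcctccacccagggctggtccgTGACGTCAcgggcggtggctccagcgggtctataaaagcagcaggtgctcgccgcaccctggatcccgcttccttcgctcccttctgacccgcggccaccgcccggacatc
Btc: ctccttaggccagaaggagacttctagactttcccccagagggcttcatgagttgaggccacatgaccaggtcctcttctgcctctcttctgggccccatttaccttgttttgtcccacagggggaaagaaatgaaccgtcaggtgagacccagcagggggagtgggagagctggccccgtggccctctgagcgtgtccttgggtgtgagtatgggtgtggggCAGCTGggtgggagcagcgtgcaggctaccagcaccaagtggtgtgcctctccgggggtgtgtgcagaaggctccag
The *Areg* promoter held 1 cyclic AMP response element, whose first base was 61 bases before the start. It also held 1 CAGCTG E-box, which began 112 bases before the start. The *Btc* promoter held 1 CAGCTG E-box, 27 bases before the start. E-boxes with other letters were not searched for and are not marked, so these counts cover CAGCTG alone. Of all 32851 promoters of this length, 1.79% held the cyclic AMP response element and 16.3% the CAGCTG E-box. The AP-1 motif TGANTCA, bound by FOS and JUN proteins and held by 7.81% of promoters, was not among the letters of these windows. Windows were examined for 4 of the 8 genes. Those of *Ereg*, *Hbegf*, *Nrg1* and *Erbb3* were not examined, so whether they hold these motifs is unknown. The windows of *Egfr* and *Erbb2* held 0 matches to the 3 motifs. The motifs do not overlap each other here, and a match describes letters, not binding.

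HBEGF, the heparin-binding ligand of EGFR, acts in wound repair and on smooth muscle cells. Its gene *Hbegf* (ENSMUSG00000024486, chromosome 18, 36504927 to 36515805, minus strand) was the most highly expressed of the 8 genes in both groups. WT libraries held 23.9, 21.3 and 19.3 FPKM and MSTN-KO libraries 13.9, 12.6 and 13.8 FPKM, without overlap. The WT mean (21.5 ± 2.29 FPKM, SD, n = 3) was 1.60 times the MSTN-KO mean (13.4 ± 0.696 FPKM). On the log2 scale *Hbegf* fell by 0.64 (standard error 0.13, limma adjusted p = 0.00603). The calls of *Areg* and *Hbegf* were kept in all 10 alternative fits and in all 6 fits that left out 1 library.

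Epiregulin (*Ereg*, ENSMUSG00000029377) and betacellulin (*Btc*, ENSMUSG00000082361) were the low EGFR ligands. *Ereg* lies on chromosome 5 from 91074622 to 91093646, upstream of *Areg* and on the same strand. It was at 1.19, 1.31 and 1.39 FPKM in WT and at 2.35, 1.60 and 1.09 FPKM in MSTN-KO. The MSTN-KO replicates lay on both sides of the WT range and varied more. The log2 difference was 0.19 with a 95% interval from -0.22 to 0.61 (limma adjusted p = 0.507), so a fall as large as that of *Areg* lay outside the interval, while a rise of the size of that of *Nrg1* was just past its upper end. *Btc*, on chromosome 5 from 91357261 to 91402994, was at 0.444, 0.429 and 0.666 FPKM in WT and at 0.337, 0.685 and 0.185 FPKM in MSTN-KO. These groups overlapped fully (two-sided exact permutation test of the mean FPKM, p = 0.5, with 0.1 the smallest p that 3 libraries against 3 allow).

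Neuregulin 1, the ligand of ERBB3 and ERBB4, was the only one of the 8 genes called higher. *Nrg1* (ENSMUSG00000062991, chromosome 8, 31814551 to 32884029, minus strand) spans many alternative transcripts, which a value per gene does not part. It was at 1.80, 1.38 and 1.40 FPKM in WT and at 3.86, 2.54 and 2.57 FPKM in MSTN-KO. All MSTN-KO libraries were above all WT libraries, with MSTN-KO replicate 1 highest. The mean was 1.53 ± 0.236 FPKM (SD, n = 3) in WT and 2.99 ± 0.754 FPKM in MSTN-KO, a ratio of 1.96. The log2 difference was 0.65 (standard error 0.18, limma adjusted p = 0.0242). *Nrg1* was no longer called without WT replicate 2 (limma adjusted p = 0.0953), WT replicate 3 (0.0663) or MSTN-KO replicate 1 (0.115), while the difference stayed between 0.50 and 0.72. The call was also lost when every library was brought to the same FPKM total of 1000000 (0.0986), where the median over all genes was -0.26 and *Nrg1* was at 0.48.

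Of the other EGF family ligands, *Tgfa*, *Egf*, *Nrg2* and *Nrg4* had values, all under 1 FPKM. *Epgn*, *Nrg3* and the receptor *Erbb4* were not among the genes with values, so their levels are unknown. *Tgfa*, which encodes the EGFR ligand TGF-alpha, was at 0.952, 0.349 and 0.450 FPKM in WT and at 0.0819, 0.0230 and 0.105 FPKM in MSTN-KO. Its groups did not overlap, and WT replicate 1 stood above the other WT replicates (two-sided exact permutation test, p = 0.1, the smallest possible). In a fit without the filter on low values, the log2 difference of *Tgfa* was -0.55 (standard error 0.13, limma adjusted p = 0.0387). *Egf* lay between 0.0730 and 0.169 FPKM and *Nrg4* between 0.0274 and 0.169 FPKM over the 6 libraries, with overlap. *Nrg4* overlaps *Fbxo22* on the opposite strand, and whether the counting used strand is not given in the sources used here. *Nrg2* was listed at 0 in the WT libraries and in MSTN-KO replicate 3, and at 0.241 and 0.0686 FPKM in MSTN-KO replicates 1 and 2.

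Among the receptors, *Erbb3* was the 1 gene called. ERBB3 relays NRG1 signals, mainly in a pair with ERBB2, and binds PI3K. Its gene (ENSMUSG00000018166) lies on chromosome 10 from 128567523 to 128589652 on the minus strand. It was at 4.80, 3.59 and 3.402 FPKM in WT and at 0.886, 2.75 and 1.30 FPKM in MSTN-KO. All WT libraries were above all MSTN-KO libraries, but MSTN-KO replicate 2 was close to WT replicate 3. The means were 3.93 ± 0.759 FPKM (SD, n = 3) in WT and 1.65 ± 0.978 FPKM in MSTN-KO, a WT level 2.39 times as high. On the log2 scale *Erbb3* fell by 0.95 (standard error 0.23, limma adjusted p = 0.0139). The call was lost without WT replicate 1 (limma adjusted p = 0.0779), MSTN-KO replicate 1 (0.0504) or MSTN-KO replicate 3 (0.0671) and without the filter on low values (0.06), with differences from -1.23 to -0.74 when 1 library was left out. The differentiation marker *Myog* was at 175, 148 and 47.3 FPKM in WT and at 7.33, 10.2 and 11.6 FPKM in MSTN-KO, so both genes were lower in MSTN-KO, and the part of differentiation in the *Erbb3* difference was not tested.

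*Erbb2* and *Egfr* did not pass the test. *Erbb2* (ENSMUSG00000062312, chromosome 11, 98412470 to 98437716), the receptor that pairs with the others, was at 13.5, 10.2 and 11.4 FPKM in WT and at 11.5, 10.8 and 12.1 FPKM in MSTN-KO. The MSTN-KO values lay within the WT range, and the log2 difference was -0.016 with a 95% interval from -0.33 to 0.29 (limma adjusted p = 0.952). *Erbb2* overlaps *Mien1* on the opposite strand. *Egfr* (ENSMUSG00000020122, chromosome 11, 16752203 to 16918158), the receptor of AREG, HBEGF, EREG and BTC, was low, at 1.70, 1.29 and 1.00 FPKM in WT and at 1.30, 1.57 and 1.19 FPKM in MSTN-KO. Its MSTN-KO values also lay within the WT range, with a log2 difference of 0.024 and an interval from -0.35 to 0.40 (limma adjusted p = 0.942). Differences inside these intervals were not detectable with 3 libraries a group.

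**Figure D2:**
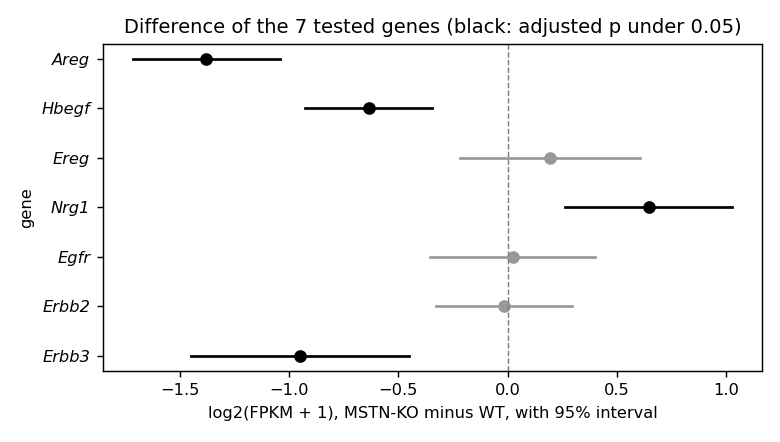
Difference in mean log2(FPKM + 1), MSTN-KO minus WT, of the 7 tested genes with the 95% interval from limma (3 libraries a group). The intervals of *Areg*, *Hbegf* and *Erbb3* lie below 0 and that of *Nrg1* above 0, while those of *Ereg*, *Egfr* and *Erbb2* cross 0.

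The order of the levels differed between the groups. In WT the order was *Hbegf*, *Areg*, *Erbb2*, *Erbb3*, *Nrg1*, *Egfr*, *Ereg* and *Btc*. The ranges of *Areg* and *Erbb2* overlapped there, as did those of *Nrg1* and *Egfr* and of *Egfr* and *Ereg*, and all other neighbours were apart. In MSTN-KO the order was *Hbegf*, *Erbb2*, *Areg*, *Nrg1*, *Ereg*, *Erbb3*, *Egfr* and *Btc*. Here *Ereg* and *Erbb3* overlapped, as did *Erbb3* and *Egfr*. *Erbb2* was thus above *Areg* in 3 of 3 MSTN-KO libraries, and *Areg* was above *Erbb2* in 2 of 3 WT libraries.

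The summed ligand RNA was lower in MSTN-KO and its make-up differed. The FPKM of the 9 measured ligand genes summed to 40.8, 42.7 and 38.7 in WT and to 26.0, 22.6 and 23.6 in MSTN-KO, without overlap (two-sided exact permutation test, p = 0.1, the smallest possible). *Areg* made up 30.4%, 41.5% and 39.5% of that sum in WT and 19.0%, 21.8% and 23.8% in MSTN-KO. *Nrg1* made up 3.24% to 4.41% in WT and 10.9% to 14.8% in MSTN-KO. The shares of *Hbegf* overlapped, at 49.8% to 58.5% and 53.4% to 58.4%. *Areg* and *Hbegf* together made up 89.0% to 91.5% in WT and 72.5% to 82.2% in MSTN-KO, so the lower sum mostly restates their falls. Multiplying a library by 1 factor does not change these shares, whereas quantile normalization can. The *Areg* level was 6.90, 12.8 and 10.9 times that of *Nrg1* in WT and 1.28, 1.93 and 2.18 times in MSTN-KO. Among receptors, *Erbb2* was 2.81, 2.84 and 3.35 times as high as *Erbb3* in WT and 13.0, 3.93 and 9.33 times as high in MSTN-KO. The receptor sums overlapped, at 15.1 to 19.97 FPKM in WT and 13.7 to 15.1 FPKM in MSTN-KO. The plot of ligand shares shows the make-up of each library.

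**Figure D3:**
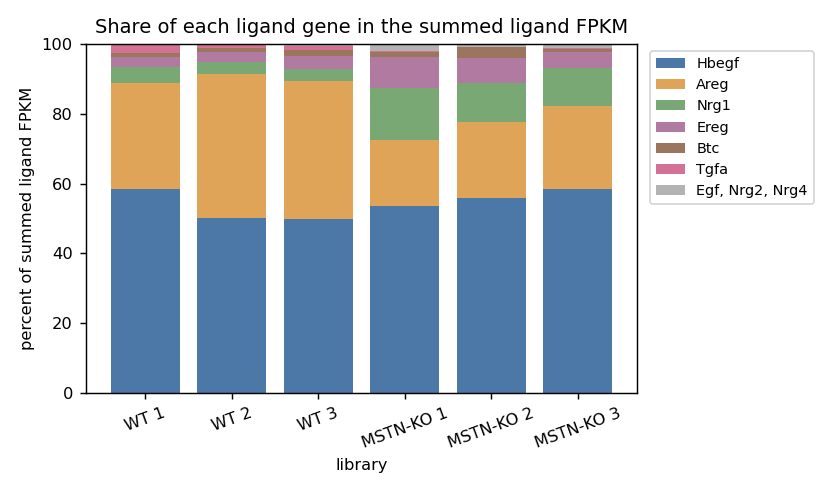
Share of each ligand gene in the summed FPKM of the 9 measured ligand genes, in percent, 1 bar per library. *Hbegf* is the largest part in all 6 libraries, the *Areg* part is smaller in the 3 MSTN-KO libraries (19.0% to 23.8%) than in WT (30.4% to 41.5%), and the *Nrg1* part is larger.

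Genes around the ligands and receptors were described by 4 lists, of ligand shedding, receptor adaptors and the RAS-ERK relay, receptor inhibitors and degradation, and EGF response genes. Of the 64 genes tested in these lists, 5 were called higher and 7 lower in MSTN-KO, and their median log2 difference was 0.039, beside -0.00078 over all genes tested. The share called was close to that of all genes (17.7%). The plot by list shows the called genes.

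Of 8 tested genes for ligand shedding, 1 was called, *Rhbdf1*, which rose. It encodes iRhom1, an inactive rhomboid that binds ADAM17. Its level was 33.3, 28.1 and 25.6 FPKM in WT and 43.9, 43.0 and 46.9 FPKM in MSTN-KO, a log2 difference of 0.61 (standard error 0.13, limma adjusted p = 0.00701). It was not called after scaling to a sum of 1000000 (adjusted p = 0.0678). *Adam17*, the main protease that frees AREG and HBEGF, was at 12.7, 11.2 and 11.8 FPKM in WT and at 10.7, 11.7 and 7.31 FPKM in MSTN-KO, with overlap (log2 difference -0.26, limma adjusted p = 0.295).

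Of 20 tested genes for receptor adaptors and the RAS-ERK relay, 2 were called higher and 3 lower. The adaptor gene *Crkl* fell by 0.89 (limma adjusted p = 0.00104) and the small GTPase gene *Nras* by 0.67 (limma adjusted p = 0.00431). *Ksr1*, a scaffold of the RAF, MEK and ERK kinases, rose from 2.91, 3.02 and 2.92 FPKM to 6.84, 6.24 and 6.50 FPKM, a log2 difference of 0.93 (limma adjusted p = 0.000816). *Map2k2*, for MEK2, had a log2 difference of 0.42 (limma adjusted p = 0.0326), a call kept in only 2 of 6 fits with 1 library left out (adjusted p up to 0.160) and lost without the variance trend or after scaling to a sum of 1000000.

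Of 15 tested genes for receptor inhibitors and degradation, 0 were called higher and 2 lower by limma. *Erbin*, whose protein binds ERBB2, was at 5.59 to 6.11 FPKM in WT and at 1.78 to 4.58 FPKM in MSTN-KO, and fell by 0.75 on the log2 scale (limma adjusted p = 0.0295). *Socs4*, which promotes breakdown of EGFR, fell by 0.68 (limma adjusted p = 0.0306). Both calls were kept in only 2 of 6 fits with 1 library left out, with adjusted p up to 0.104 and 0.0897, and were lost without the filter on low values. *Erbin* was at -0.48 with the correction for length and GC content, and also without MSTN-KO replicate 3. *Socs4* was at -0.39 with that correction, and its call was lost under quantile normalization (adjusted p = 0.0531) and with that correction and the replicate block (0.0858). *Errfi1*, the feedback inhibitor of EGFR kinase, was at 75.3, 66.1 and 56.2 FPKM in WT and at 71.3, 58.7 and 45.8 FPKM in MSTN-KO, with overlap (limma adjusted p = 0.478).

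Of 21 tested genes known to respond to EGF, 2 were called higher, 2 lower and 17 neither. The immediate early gene *Fos* rose from 2.31, 2.89 and 1.26 FPKM to 19.3, 15.96 and 16.6 FPKM (log2 difference 2.57, limma adjusted p = 1.43e-06). The study describes *Fos* as lower in MSTN-KO by qRT-PCR and RNA-seq, the opposite direction, and the reason was not tested. *Ier2* had a log2 difference of 0.64 (limma adjusted p = 0.00487). *Spry2*, a feedback inhibitor, fell by 0.48 (limma adjusted p = 0.0415) and the ETS factor gene *Etv5* by 0.59 (limma adjusted p = 0.0353). These calls of *Spry2* and *Etv5* were kept in 1 and 2 of 6 fits with 1 library left out and were lost without the filter on low values. *Etv5* was also not called under quantile normalization (adjusted p = 0.104), nor *Spry2* without the variance trend (0.0568) or with the correction for length and GC content (0.0691). *Dusp6*, *Egr1*, *Ccnd1*, *Myc* and *Phlda1* overlapped between the groups and were not called (limma adjusted p from 0.360 to 0.648). Other uncalled genes showed no overlap, as did 37.4% of all genes tested. These were *Egr3* and *Dusp4*, lower in MSTN-KO (limma adjusted p = 0.0521 and 0.106), and *Fosl1*, higher (0.180).

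**Figure D4:**
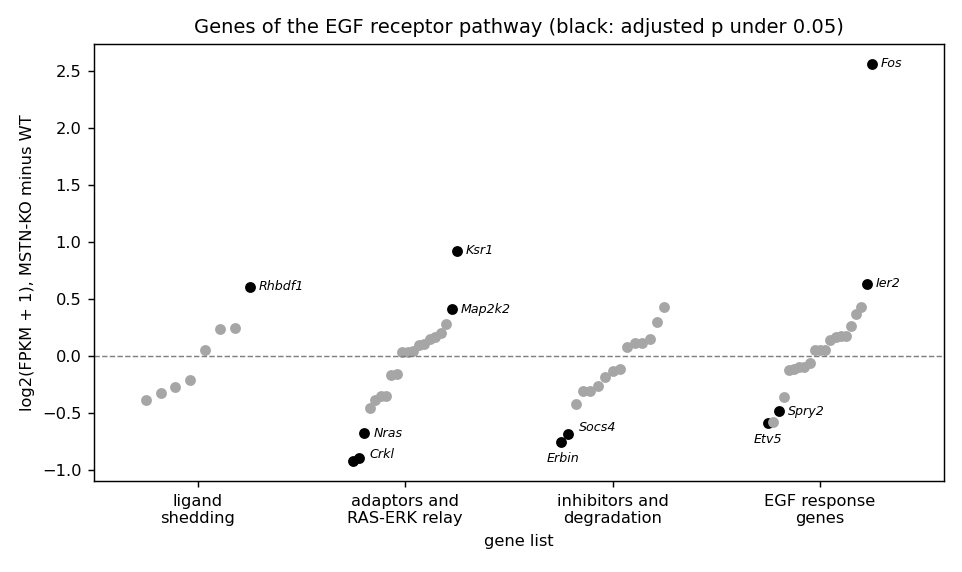
Difference in mean log2(FPKM + 1), MSTN-KO minus WT, of the 64 tested genes in 4 lists, 1 point per gene in order of its value, with called genes in black and all but 1 of them named. *Fos* at 2.57 is the highest point, *Crkl* at -0.89 is among the lowest, and 52 of the 64 points are not called.

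*Ereg*, *Areg* and *Btc* lie in 1 cluster of EGF ligand genes on chromosome 5, with *Epgn* before *Ereg*. The 681 tested genes of that chromosome had a median log2 difference of -0.055. The nearest tested genes on either side of *Areg* that are not EGF ligands were not called. *Mthfd2l*, a mitochondrial folate enzyme gene whose start lies at -208 kb from that of *Areg*, was at 4.63 to 6.86 FPKM in WT and at 4.71 to 6.91 FPKM in MSTN-KO (log2 difference -0.038, 95% interval from -0.42 to 0.34). *Parm1*, with its start 378 kb beyond that of *Areg*, was at 1.02, 0.721 and 0.335 FPKM in WT and at 1.15, 0.783 and 1.04 FPKM in MSTN-KO, with overlap (limma adjusted p = 0.388). *Cxcl1*, a chemokine gene at -248 kb, rose from 2.76, 3.83 and 3.85 FPKM to 62.0, 36.1 and 49.8 FPKM (log2 difference 3.47, limma adjusted p = 8.55e-08). *Cdkl2*, a kinase gene 904 kb beyond *Areg*, fell by 0.72 (limma adjusted p = 0.0140). The plot by distance shows calls in both directions within this stretch. The *Areg* level was 10.4, 13.5 and 10.99 times that of *Ereg* in WT and 2.11, 3.07 and 5.16 times in MSTN-KO, without overlap.

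**Figure D5:**
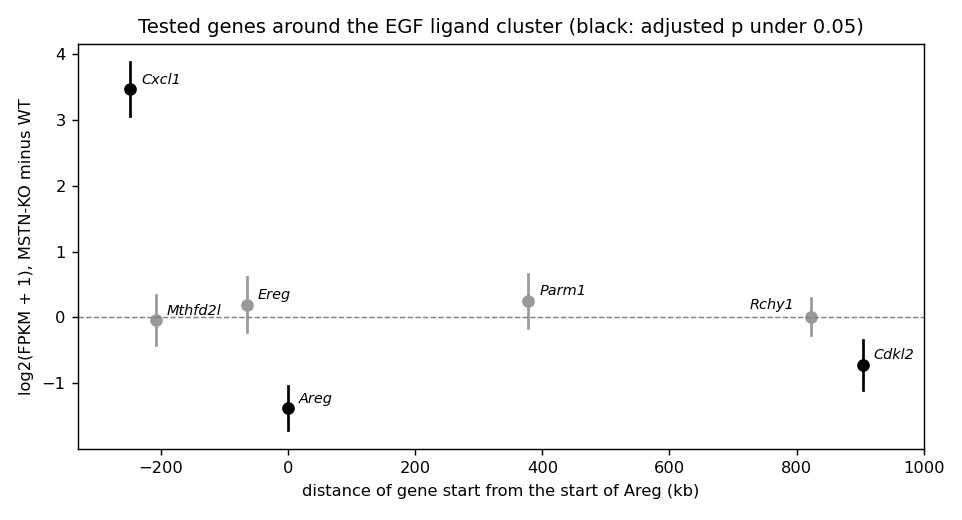
Difference in mean log2(FPKM + 1), MSTN-KO minus WT, with the 95% interval from limma, of the 7 tested genes around the cluster against the distance of their starts from that of *Areg* in kb. *Cxcl1* (3.47) is the highest and *Areg* (-1.38) the lowest, and the intervals of *Mthfd2l*, *Ereg*, *Parm1* and *Rchy1* cross 0.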

How the data were processed

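The authors sequenced RNA of C2C12 cells, 3 libraries a group, on an Illumina HiSeq instrument whose model the sources name differently. The deposited values are FPKM per gene, 1 library per file and without pooling. The submitters' processing notes name Bowtie 0.12.2 and the build mm8 without a role, and the quantifier, annotation and gene filter are not given in the sources used here. Ensembl identifiers were matched to GENCODE M21 (GRCm38), and 14445 of 14548 had a symbol. Positions are from that annotation and not from the build of the files.

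Genes that reached 1 FPKM in some library were tested on the log2(FPKM + 1) scale by limma (version 3.58.1, R version 4.3.3), using a variance trend and no covariate. Fitting was tested on simulated data. *Btc*, *Tgfa* and the ligand sum were compared by exact permutation over the 6 libraries. Python 3.11.15 was used for other steps. The 8 genes and the lists were chosen with earlier results of these data known. Genes named are the 8, the other family members, up to 4 called genes per list and direction by smallest p, cluster neighbours, markers, and for 3 called genes the 3 most alike. *Adam17*, *Errfi1* and the uncalled EGF response genes were named after their values had been seen, and 1 called list gene is not reported here. Alternatives were a pseudocount of 0.1, a fit to all genes, a filter by mean FPKM, a fit without the trend, 3 scalings, a correction for transcript length and GC content (mgcv 1.9.3), the replicate block, and each library left out.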

Additional observations from a re-analysis of the deposited data

How the results depend on the processing

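*Areg* and *Hbegf* kept their calls in every fit run, with log2 differences from -1.66 to -1.27 and from -0.91 to -0.56. Depth is unknown, so counting error is not given for the low genes *Ereg*, *Egfr*, *Nrg1* and *Btc*. Scaling to a sum of 1000000 gave 350 genes called higher and 2367 lower (952 and 971 without it), 0 of the EGF family genes higher, 3 list genes higher and 16 lower (5 and 7 without it), and log2 differences of 0.48 for *Nrg1*, -0.15 for *Egfr* and -0.26 for *Rchy1*, at a median of -0.26 over all genes. Scaling by the percentile 75 gave -0.0034 for *Egfr* and -0.035 for *Rchy1*, and quantile normalization 0.022 for *Erbb2* and 0.055 for *Mthfd2l*. The correction for length and GC content gave 0.17 for *Mthfd2l*, with and without the block. Without the filter, 3 list genes were called lower, and *Erbb3*, still at -0.95, was not called (adjusted p = 0.06). A pseudocount of 0.1 gave 254 higher and 500 lower DEGs, against 131 and 249, and scaling to a sum of 1000000 gave 510 lower. Leaving out 1 library at a time gave 419 to 1175 genes called higher and 611 to 1233 lower. Higher calls changed by over 1.5 times without WT replicate 2 (419), WT replicate 3 (600), MSTN-KO replicate 1 (488) or MSTN-KO replicate 3 (588), and lower calls without WT replicate 2. Leaving out 1 library also gave 0 to 1 of the EGF family genes higher and 3 to 10 list genes lower (3 without WT replicate 1 or 2, 4 without WT replicate 3 or MSTN-KO replicate 3). The log2 differences were then 0.50 to 0.72 for *Nrg1*, -0.080 to 0.14 for *Egfr*, -0.10 to 0.082 for *Erbb2*, -1.23 to -0.74 for *Erbb3*, -0.17 to 0.072 for *Mthfd2l* and -0.035 to 0.069 for *Rchy1*. The cause of these changes was not tested. Same-numbered libraries did not deviate together (r across genes of -0.015, -0.13 and -0.14), and the replicate block gave 939 genes higher and 1001 lower, with 1 EGF family gene higher and 3 lower, as without it. Of 413 alternative values of 26 other named genes, 354 kept direction and call, 50 lost the call and 9 changed sign.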

Other observations

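Genes with a pattern most like that of 3 called genes were sought among the 10783 other tested genes with a symbol, by the root mean square distance between log2(FPKM + 1) profiles over the 6 libraries, each centred on its mean. With 2 groups of 3 libraries, such likeness includes the group difference and is given as a description. Closest to *Areg* were *Cln3*, a lysosomal membrane protein gene (distance 0.079), *Fuca2*, a fucosidase gene (0.097), and the myosin heavy chain gene *Myh1* (0.12). *Cln3* was at 1.06, 1.88 and 1.51 FPKM in WT, and was listed at 0 in MSTN-KO replicates 1 and 3 and at 0.0353 FPKM in MSTN-KO replicate 2. *Fuca2* was at 3.93, 5.16 and 4.76 FPKM in WT and at 1.04, 0.967 and 1.65 FPKM in MSTN-KO. *Myh1* was at 1.48, 2.33 and 1.37 FPKM in WT and at 0.0660, 0.0412 and 0.0906 FPKM in MSTN-KO. With a pseudocount of 0.1, the log2 difference was -3.805 for *Cln3*, -1.87 for *Fuca2* and -3.44 for *Myh1*, beside -1.52 for *Areg*. Distances with that pseudocount were not computed.

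Closest to *Erbb3* were the basement membrane gene *Nid1* (distance 0.12), *Klhl30* (0.12) and the adhesion receptor gene *Adgra2* (0.13). *Nid1* was at 149, 121 and 119 FPKM in WT and at 47.0, 79.8 and 61.7 FPKM in MSTN-KO, where replicate 2 was highest and replicate 1 lowest, the order that *Erbb3* also showed. Closest to *Nrg1* were the homeobox gene *Six5* (0.064), the insulin receptor substrate gene *Irs2* (0.066) and the interleukin 6 receptor gene *Il6ra* (0.069). *Irs2* was at 1.96, 1.51 and 1.76 FPKM in WT and at 3.94, 3.04 and 3.02 FPKM in MSTN-KO, a log2 difference of 0.66 (limma adjusted p = 0.0154, a call kept in 4 of 6 fits with 1 library left out).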
